A study of Mus musculus with 6 samples.

Results

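The Hox genes of clusters A to D encode homeodomain transcription factors that give cells of the embryo their position along the head-to-tail axis and along the limb. Their expression was measured in mouse embryonic fibroblasts (MEFs), connective-tissue cells grown from embryos, of 3 Foxd1 genotypes during reprogramming towards pluripotency. Members were all genes whose only symbol in the annotation of the array is Hox, a cluster letter from a to d and a paralog number from 1 to 13, each read from its probe set with the highest mean. This gave 37 of 19938 genes. Cluster A had 10 members, for paralog numbers 2 to 7, 9 to 11 and 13. Cluster B had 9 (1 to 7, 9 and 13), cluster C had 9 (4 to 6 and 8 to 13) and cluster D had 9 (1, 3, 4 and 8 to 13). Hoxb8 shared its probe set with Hoxb7 and was not a member.

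The 3 groups were Foxd1+/+, Foxd1+/- and Foxd1-/- MEFs. Cells of all groups, the Foxd1+/+ controls included, carried retroviruses for Oct4, Sox2 and Klf4, added on day 0, and RNA was taken on day 8. Each group had 2 single-colour Affymetrix arrays, titled biological replicates 1 and 2. The labels name no strain and do not say whether replicates came from separate embryos or cultures, which part of Foxd1 is deleted, or from which part of the embryo the fibroblasts were grown. P-values therefore measure the spread between these arrays. No uninfected MEFs were analysed here.

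Hox genes lie in 4 genomic clusters that arose by duplication, and genes with the same paralog number in different clusters are close relatives. Within a cluster, low-numbered genes at the 3′ end are switched on early and in anterior tissue, and high-numbered genes at the 5′ end later and in posterior or distal tissue. Fibroblasts in culture keep much of the Hox pattern of the body site they came from, so the genes serve as a record of position. Hox proteins bind DNA together with the TALE cofactors, the Pbx, Meis and Pknox (Prep) proteins. Foxd1 is a forkhead transcription factor best known from the stroma of the developing kidney and from the retina.

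The stretches just before the start of 4 Hox genes are shown first, because these genes rose between the replicate numbers in the one comparison in which Hox genes passed the test. Each is the 250 bases before a RefSeq gene start on GRCm38.p6, written 5′ to 3′ on the gene's strand. Capitals mark 4 motifs searched on both strands, with overlaps between them allowed: TAATTA, a core homeodomain site, TGATNNAT, a shared Hox and Pbx site, TTTATG, a site of posterior Hox proteins, and TATAAA, the TATA box. The RefSeq table held 23 such stretches for 21 of the 37 members, and Hoxc8, which also passed, was not among them. The stretches printed lie at chr2:74721728-74721977, plus strand (Hoxd4), chr2:74704365-74704614, plus strand (Hoxd8), chr2:74679308-74679557, plus strand and chr2:74682073-74682322, plus strand (2 starts of Hoxd11), and chr6:52204588-52204837, minus strand (Hoxa5).
Hoxd4: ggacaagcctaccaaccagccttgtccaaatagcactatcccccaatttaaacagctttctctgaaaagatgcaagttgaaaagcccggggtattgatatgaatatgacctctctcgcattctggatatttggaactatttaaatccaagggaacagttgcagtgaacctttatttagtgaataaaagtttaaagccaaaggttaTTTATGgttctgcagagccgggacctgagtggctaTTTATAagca
Hoxd8: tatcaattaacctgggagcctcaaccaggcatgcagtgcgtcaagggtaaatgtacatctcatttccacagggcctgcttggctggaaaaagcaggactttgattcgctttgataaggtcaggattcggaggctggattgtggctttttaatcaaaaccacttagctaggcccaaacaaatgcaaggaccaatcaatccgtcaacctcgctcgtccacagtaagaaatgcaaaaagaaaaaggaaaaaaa
Hoxd11, first start: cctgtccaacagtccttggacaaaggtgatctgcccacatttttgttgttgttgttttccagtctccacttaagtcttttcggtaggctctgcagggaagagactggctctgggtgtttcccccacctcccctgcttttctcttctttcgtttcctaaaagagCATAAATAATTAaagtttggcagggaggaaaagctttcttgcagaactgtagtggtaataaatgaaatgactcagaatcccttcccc
Hoxd11, second start: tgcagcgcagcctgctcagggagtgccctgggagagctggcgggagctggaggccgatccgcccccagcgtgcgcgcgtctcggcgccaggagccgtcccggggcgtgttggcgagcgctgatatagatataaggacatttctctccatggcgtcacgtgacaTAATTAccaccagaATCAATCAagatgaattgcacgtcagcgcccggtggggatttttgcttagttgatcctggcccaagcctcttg
Hoxa5: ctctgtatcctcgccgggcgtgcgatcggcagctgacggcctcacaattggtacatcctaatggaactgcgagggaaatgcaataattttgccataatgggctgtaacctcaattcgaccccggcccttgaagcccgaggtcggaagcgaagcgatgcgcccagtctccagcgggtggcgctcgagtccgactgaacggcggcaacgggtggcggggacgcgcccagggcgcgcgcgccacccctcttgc

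Hoxd4 held TTTATG and TATAAA, and the stretches at the Hoxd11 starts held TAATTA with TTTATG and TAATTA with TGATNNAT. Hoxd8 and Hoxa5 held none of the 4 motifs, so the genes that rose together had no motif of the 4 in common. Of all 23 Hox stretches 2 held TAATTA (8.70%), both of them at Hoxd11, against 4.84% of 32851 stretches of the same length in the genome table. TGATNNAT was in 3 (13%, against 7.68%), TTTATG in 4 (17.4%, against 10.8%) and TATAAA in 3 (13%, against 12.4%), so each share rests on few genes. Median GC content was 59.2% in the Hox stretches and 52.4% in all, and the median number of CpG pairs was 13 and 6. Within the printed set base composition varied widely, from 40.4% GC at Hoxd4 to 63.6% at Hoxa5. A match of letters is a description and not a site in use.

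Array medians lay between 76.5 and 79.6, and no depth applies to arrays, whose number limits the precision. Foxd1 (probe set 10406845) gave 1907 and 1169 for replicates 1 and 2 of Foxd1+/+. The Foxd1+/- replicates gave 1014 and 2074, and those of Foxd1-/- 189 and 213. Both Foxd1-/- arrays were far below the other 4, with a log2 difference of -2.89 ± 0.41 (SE, 2 arrays against 2) from Foxd1+/+ that did not pass the test (limma adjusted p = 1.0, unadjusted p = 0.00111). The Foxd1+/- pair was not between the others: at replicate 2 the array labelled Foxd1+/- read above the array labelled Foxd1+/+, so directions between those groups rest on the labels. Intensities of the fibroblast markers (15 genes) summed to 35116 and 44410, 36299.9 and 43171, and 41126 and 49499.6 on Foxd1+/+, Foxd1+/- and Foxd1-/- arrays. Single markers differed widely, from 226 for Twist2 to 7254 for Vim on the first Foxd1+/+ array. Pluripotent cell markers (10 genes) summed to 3239.9 and 1290.2, 2191 and 1797, and 2340.0 and 1330.5, and macrophage and leukocyte markers (10 genes) to 2718 and 2510.0, 2965 and 2219.5, and 2043 and 1762. No marker was at 0, as the lowest value on any array was 19.5. In such bulk RNA, fewer cells of a type and less RNA per cell cannot be told apart.

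Hox transcripts were read from all 4 clusters in every genotype. No detection call comes with the values, so a dim threshold of 37.6 was set at the 95th percentile of 1015 olfactory receptor genes, which fibroblasts are not known to use. All 37 members had a mean above it, as did 75.0% of all genes, and 36 were above it on all 6 arrays. The exception was Hoxd12, at 36.5 on the second Foxd1+/+ array. Levels of different probe sets cannot be ranked, since each has its own response. The posterior genes Hoxb13, Hoxc11, Hoxc12, Hoxc13 and Hoxd12 and the anterior gene Hoxd1 had every value between 36.5 and 54.0, close to the dim threshold. Across the 6 arrays a member's highest value was between 1.08 and 1.78 times its lowest, Hoxd4 (70.1 to 125) being the one that varied most.

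**Figure D1:**
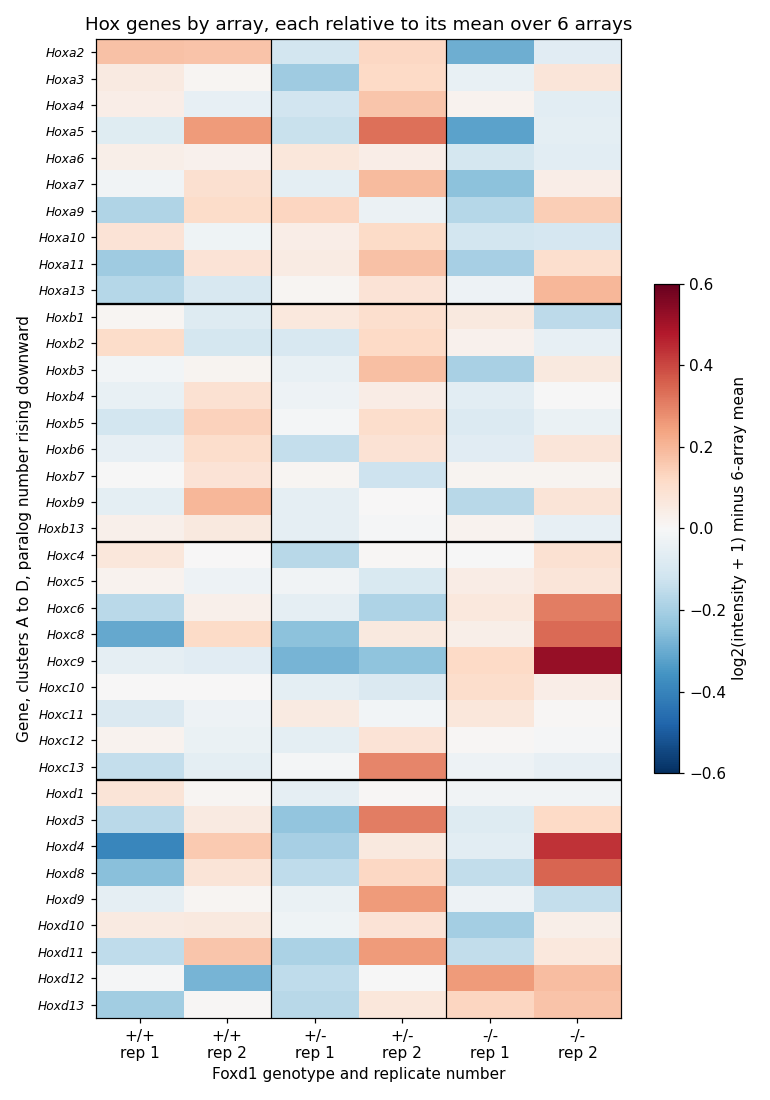
Each row is a Hox gene, ordered by cluster and paralog number, and each column an array, with colour for log2(intensity + 1) minus the gene's mean over 6 arrays. Hoxc9, Hoxc8 and Hoxd4 are highest on the second Foxd1-/- array, and many rows of clusters A and D are redder on replicate 2 than on replicate 1 of the same genotype.

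Foxd1-/- cells were first compared with Foxd1+/+ cells, which asks what differs without Foxd1 under the same 3 factors. The largest differences upward were in Hoxc9 (1.30-fold), Hoxd12 (1.29-fold), Hoxd4 and Hoxc8, and the largest downward in Hoxa2 (1.28-fold) and Hoxa5 (1.22-fold). Every member of cluster C read higher on average in Foxd1-/-, and every member of cluster B lower. None of these differences passed the test: limma called 0 of 37 Hox genes at an adjusted p under 0.05, as it called 0 of 19938 genes (0.00%). At an unadjusted p under 0.05 there were 3 Hox genes (8.11%), Hoxc9, Hoxd12 and Hoxa2, against 421 of all genes (2.11%).

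Cluster C, on chromosome 15, had the most members with separated groups, 6 of 9 upward (66.7%, against 13.6% of all genes). Hoxc9, a gene of the thoracic region, read 168 and 167 in Foxd1+/+ and 189.7 and 251 in Foxd1-/-. Both Foxd1-/- arrays were above both Foxd1+/+ arrays, the second well above the first, and the log2 difference was 0.38 ± 0.14 (SE; limma adjusted p = 1.0, unadjusted p = 0.0430). Leaving out 1 array at a time moved that difference between 0.18 and 0.58. Hoxc6, active in the thorax and forelimb, read 146 and 167 against 170.5 and 202, a log2 difference of 0.25 ± 0.12. Its groups did not overlap, but the gap between the nearest arrays was small beside the spread within each pair. Hoxc8, a patterning gene of the trunk, read 319 and 428 against 405 and 501 (0.28 ± 0.20), and its groups overlapped, with values higher on replicate 2 in both genotypes. At each replicate number its Foxd1-/- array was the higher. Hoxc10, a lumbar gene, had tight pairs, 149 and 149 against 160.2 and 153, and a small log2 difference of 0.070 ± 0.053. Hoxc5, Hoxc11 and Hoxc13 were also separated, with log2 differences of 0.062, 0.096 and 0.060, while Hoxc4 and Hoxc12 overlapped (0.011 and 0.008). Hoxc11 (41.9 and 43.7 against 46.8 and 44.8) and Hoxc13 (39.6 and 42.2 against 43.0 and 42.4) were near the dim threshold, as was Hoxc12. The median over the 9 genes was 0.070, against 0.003 over all genes.

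In cluster D, on chromosome 2, 2 genes were separated upward, both genes of the distal limb. Hoxd12, which acts in the digits, read 44.2 and 36.5 in Foxd1+/+ and 53.3 and 50.6 in Foxd1-/-, with a log2 difference of 0.36 ± 0.11 (unadjusted p = 0.0255 and adjusted p = 1.0 in limma). Its groups were separated, though at a level near the dim threshold. Hoxd13, the last gene of the cluster and a regulator of digit growth, read 86.1 and 100.1 against 109 and 112 (0.25 ± 0.11). Both Foxd1-/- arrays were above both Foxd1+/+ arrays for this gene too. Hoxd10 (58.9 and 59.0 against 49.2 and 58.1, -0.14 ± 0.097), a gene of the lumbar cord and limb, was lower on both Foxd1-/- arrays, although by under 1 unit at the second. Hoxd1 was separated downward as well, at 42.9 and 41.0 against 40.1 and 40.1 (-0.064 ± 0.055), near the dim threshold. Hoxd3, Hoxd4, Hoxd8, Hoxd9 and Hoxd11 overlapped between the groups, and for Hoxd4 the Foxd1-/- array was the higher at each replicate number. Of the 9 genes 5 read higher on average and 4 lower, and the median was 0.075.

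In cluster A, on chromosome 6, 7 of 10 genes read lower in Foxd1-/-. Hoxa2, which patterns the hindbrain and the second pharyngeal arch, read 91.8 and 91.3 in Foxd1+/+ cells, against 65.9 and 77.3 in Foxd1-/- cells. The Foxd1+/+ arrays were nearly equal and both Foxd1-/- arrays lay below them, with a log2 difference of -0.35 ± 0.12 (unadjusted p = 0.0306 and adjusted p = 1.0 in limma). Leaving out arrays 1 at a time gave differences from -0.47 to -0.24. Hoxa10, a lumbar and uterine gene, read 109 and 101 against 95.5 and 96.1 (-0.13 ± 0.064), and Hoxa6, a thoracic gene, 90.7 and 90.0 against 82.0 and 84.4 (-0.12 ± 0.050). Both were lower on each Foxd1-/- array by small amounts. Hoxa5, needed for lung and neck development, read 174 and 219 against 146 and 175 (-0.28 ± 0.21). Its groups overlapped, and replicate 2 was higher in both, but at each replicate number the Foxd1-/- array was the lower. Hoxa13, the counterpart of Hoxd13 in hand and foot, was the separated gene that read higher, at 58.0 and 61.1 against 63.9 and 75.2 (0.22 ± 0.095). The cluster median was -0.069.

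Cluster B, on chromosome 11, showed the smallest differences, from -0.11 for Hoxb9 to -0.012 for Hoxb2, with a median of -0.057. Only Hoxb13 was separated, at 40.7 and 41.4 against 40.3 and 38.4, near the dim threshold. That all 9 read lower depended on single arrays. Without any 1 of the 4 arrays compared 2 to 5 of 9 read higher, the 5 without the second Foxd1+/+ array. In cluster C 7 to 9 of 9 genes read higher when each array was left out in turn, and 8 of 9 with quantile normalization. The arrays whose Foxd1 went against their labels were the second Foxd1+/+ and the second Foxd1+/- array. Leaving out both left 7 of 9 higher in cluster C and 5 of 9 in cluster B. The Foxd1+/- array does not enter this difference, so by construction these are the counts without the second Foxd1+/+ array alone.

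**Figure D2:**
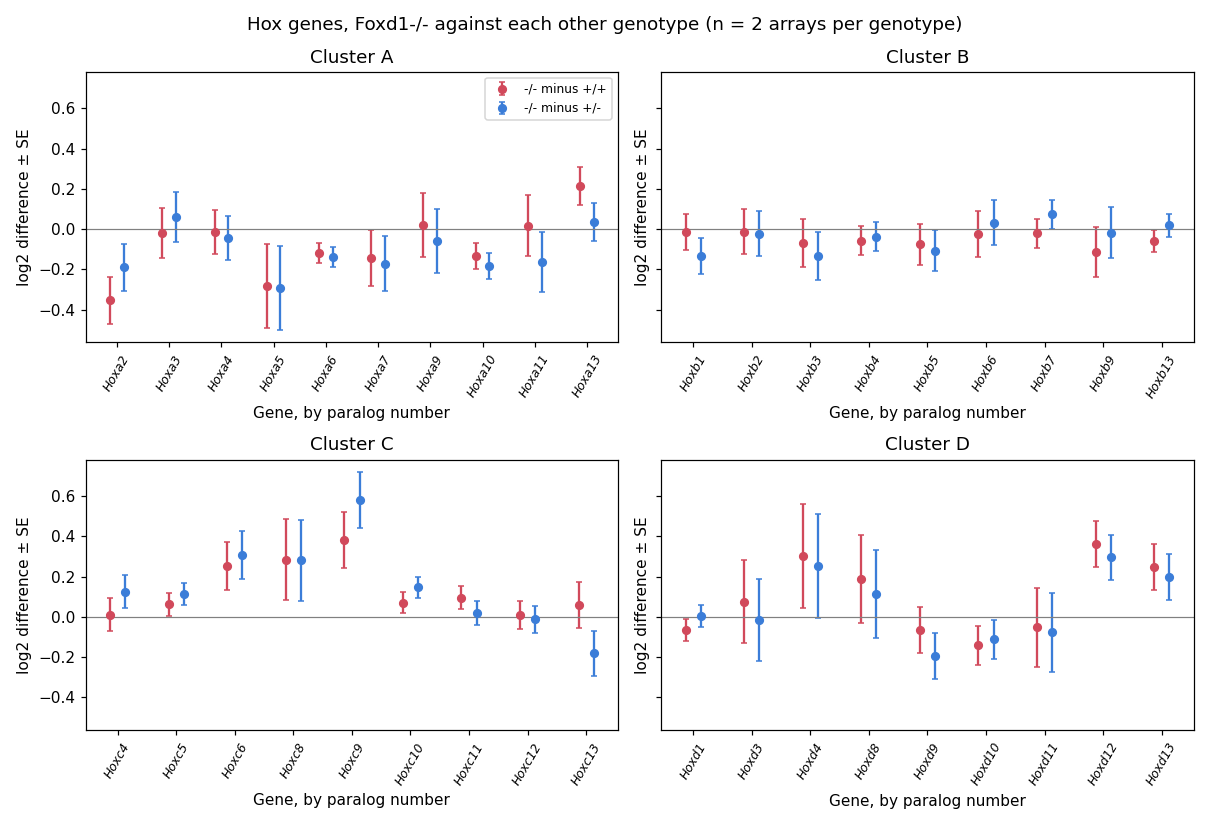
Points are log2 differences of Foxd1-/- from Foxd1+/+ (red) and from Foxd1+/- (blue) with their standard errors, 1 panel per cluster and genes in paralog order. Cluster B lies close to 0, cluster C lies at or above 0 in red, and Hoxc9 and Hoxd12 stand highest while Hoxa2 and Hoxa5 stand lowest.

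Over all 37 members 17 read higher in Foxd1-/- than in Foxd1+/+ and 20 lower, with a median of -0.013. The arrays of the groups did not overlap for 9 genes upward (24.3%, against 13.6% of all genes) and 6 downward (16.2%, against 12.1%). Of the 9 upward, 6 were in cluster C, and the others were Hoxa13, Hoxd12 and Hoxd13. By paralog number, 1 of 7 anterior genes (numbers 1 to 3) and 6 of 14 central genes (4 to 8) read higher on average. Of the posterior genes (9 to 13) 10 of 16 did, where 51.8% of all genes read higher. Across the alternatives run the 3 counts ranged from 1 to 3, from 5 to 9 and from 8 to 12. Both measured genes of paralog group 8, Hoxc8 and Hoxd8, read higher, as did both of group 12. Both of groups 1, 2 and 7 read lower. The smaller of the 2 differences was only 0.008 in group 12, and -0.015, -0.012 and -0.021 in groups 1, 2 and 7. Within group 13 Hoxa13, Hoxc13 and Hoxd13 read higher and Hoxb13 lower. Comparing arrays of the same replicate number, 15 Hox genes (40.5%, against 29.5% of all genes) were higher in Foxd1-/- at both numbers and 12 (32.4%, against 26.1%) lower. Cluster C gave 7 of 9 of its genes to the first count, and cluster A 6 of 10 to the second.

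Cell type markers also read differently between these groups. Of the fibroblast markers 13 of 15 read higher in Foxd1-/- than in Foxd1+/+ (median log2 difference 0.24), and of the macrophage and leukocyte markers 9 of 10 read lower (median -0.16). Among pluripotent cell markers 8 of 10 read lower (median -0.090). Lists for endothelium, epithelium, neural cells and skeletal muscle had medians between -0.11 and 0.062 in the 3 genotype pairs. None of the markers passed the test in any of those pairs, and their part in the Hox differences was not tested.

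**Figure D3:**
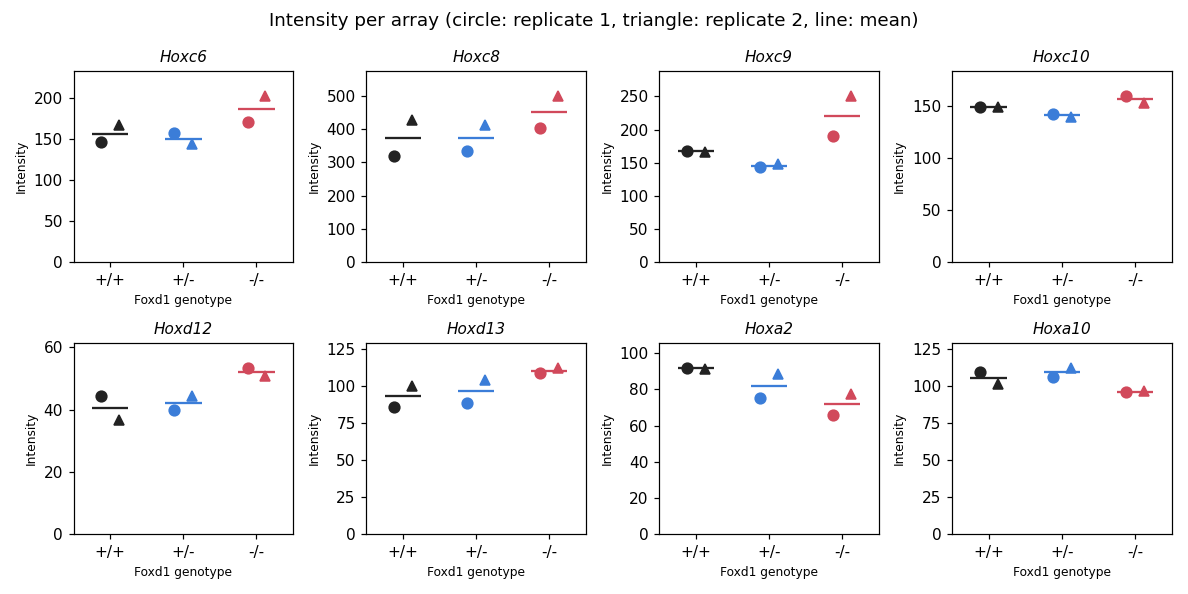
Intensity on each array (circles replicate 1, triangles replicate 2, lines group means, axes from 0) for 8 Hox genes by Foxd1 genotype. Both Foxd1-/- arrays lie above the other 4 arrays for Hoxc6, Hoxc9, Hoxc10, Hoxd12 and Hoxd13 and below them for Hoxa10, while for Hoxa2 the second Foxd1-/- array overlaps the Foxd1+/- pair.

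The Foxd1-/- arrays were then compared with the Foxd1+/- arrays. The same 2 Foxd1-/- arrays enter this comparison and that with Foxd1+/+, so their results are not independent. Hoxc9 had the largest difference, with 144 and 147 in Foxd1+/- against 189.7 and 251 in Foxd1-/-, a log2 difference of 0.58 ± 0.14. The Foxd1+/- arrays were the 2 lowest of the 6 for this gene. limma called 0 of 37 Hox genes and 0 of 19938 genes (0.00%) in this comparison as well. At an unadjusted p under 0.05 it gave 5 Hox genes (13.5%) and 460 of all genes (2.31%). These were Hoxc9 (0.00972), Hoxa10 (0.0375), Hoxa6 (0.0400), Hoxc10 (0.0418) and Hoxd12 (0.0495), all with a limma adjusted p of 1.0.

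Cluster C held 4 of the 7 genes whose groups were separated upward. Hoxc6 read 157 and 143 in Foxd1+/- against 170.5 and 202 (0.30 ± 0.12), and Hoxc10 143 and 140.0 against 160.2 and 153 (0.15 ± 0.053). Hoxc5 differed by 0.11 with no overlap. In cluster D, Hoxd12 read 40.0 and 44.5 in Foxd1+/- (0.30 ± 0.11) and Hoxd13 88.7 and 104 (0.20 ± 0.11), in both cases below each Foxd1-/- array. Lower in Foxd1-/- without overlap were Hoxa6 (92.7 and 90.8 in Foxd1+/-, -0.14 ± 0.050), Hoxa10 (106 and 112, -0.18 ± 0.064), Hoxb1 (67.5 and 69.3, -0.13 ± 0.090), Hoxb5 (93.9 and 102, -0.11 ± 0.10) and Hoxc13 (43.6 and 54.0, -0.18 ± 0.11). Hoxb1 marks the hindbrain and Hoxb5 helps place the forelimb. Hoxd12 and Hoxc13 were near the dim threshold. Hoxa2 was no longer separated, at 75.0 and 88.6 in Foxd1+/-, and its difference was -0.19 ± 0.12.

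In this comparison 17 of 37 members read higher in Foxd1-/- and 20 lower (median -0.015, against -0.003 over all genes). The counts were 7 of 9 in cluster C, 5 of 9 in D, 3 of 9 in B and 2 of 10 in A. Across the alternatives run they ranged from 6 to 8 in C, 3 to 8 in D, 1 to 6 in B and 1 to 3 in A. By paralog number 2 of 7 anterior, 8 of 14 central and 7 of 16 posterior genes read higher, against 48.6% of all genes. Groups did not overlap for 7 genes upward (18.9%, against 12% of all genes) and for 5 downward (13.5%, against 13.6%). At both replicate numbers 12 genes were higher (32.4%, against 26.6%), 7 of them in cluster C, and 12 were lower (32.4%, against 27.1%). Among the markers 11 of 15 fibroblast genes read higher (median 0.22) and 9 of 10 macrophage and leukocyte genes lower (median -0.26), and their part in the Hox values was not tested.

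Between Foxd1+/- and Foxd1+/+ the range of differences was the narrowest of the 3 pairs. Log2 differences ranged from -0.20 ± 0.14 for Hoxc9 to 0.24 ± 0.11 for Hoxc13, a gene of hair and nails. Hoxc13 read 39.6 and 42.2 in Foxd1+/+ and 43.6 and 54.0 in Foxd1+/-, near the dim threshold. Leaving out 1 array at a time moved its difference between 0.09 and 0.39. limma called 0 of 37 Hox genes and 0 of 19938 genes (0.00%), and at an unadjusted p under 0.05 there were 0 Hox genes and 193 of all genes (0.968%). The smallest unadjusted p were 0.0883 for Hoxc13 and 0.121 for Hoxa13, which read 58.0 and 61.1 against 66.0 and 69.1. Separated upward were Hoxa6, Hoxa13, Hoxb1 (65.1 and 61.0 against 67.5 and 69.3), Hoxc11 (41.9 and 43.7 against 46.4 and 44.0) and Hoxc13, which is 13.5% of members against 12.3% of all genes. Separated downward were Hoxa2, Hoxb13 (38.2 and 39.5 in Foxd1+/-), Hoxc9, Hoxc10 and Hoxd1 (39.1 and 40.9 in Foxd1+/-), 13.5% against 8.00%. Of these separated genes, Hoxb13, Hoxc11, Hoxc13 and Hoxd1 were near the dim threshold, and Hoxa6 differed by only 0.022 ± 0.050. Of the members 23 read higher and 14 lower, with a median of 0.022 against 0.002 over all genes. With each array centred on its median, 20 read higher and 17 lower, with a median of 0.003. At both replicate numbers 9 members (24.3%, against 22.0% of all genes) were higher in Foxd1+/- and 7 (18.9%, against 18.7%) lower. The sign of the median rested on single arrays, since the median was -0.056 without the first Foxd1+/+ array and -0.063 without the second Foxd1+/- array.

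Some Hox genes passed the test between the replicate numbers. In an additive model of genotype and number, limma called 5 of 37 Hox genes higher on replicate 2 than on replicate 1 (13.5%, against 4.85% of all genes called higher) and 0 lower (against 4%). Over both directions it called 1764 of 19938 genes (8.85%). At an unadjusted p under 0.05 there were 12 Hox genes (32.4%), all higher on replicate 2, against 5089 of all genes in either direction (25.5%). The 5 were Hoxd4, Hoxd8 and Hoxd11 of cluster D, Hoxc8 and Hoxa5, of which all but Hoxc8 have their upstream stretches printed. What a number marks is not in the labels.

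Hoxd4, a gene of the neck and hindbrain, read 70.1 and 103 on replicates 1 and 2 of Foxd1+/+, 80.3 and 96.2 of Foxd1+/- and 88.1 and 125 of Foxd1-/-. Replicate 2 was higher in all 3 genotypes, by 0.44 ± 0.072 in log2 on average (limma adjusted p = 0.0331). Hoxd8, a trunk gene, read 126 and 159, 136 and 164, and 136 and 192 in the same order (0.37 ± 0.061, limma adjusted p = 0.0332). Its replicate 1 values were within 10 units of each other and all below its replicate 2 values. Hoxa5 rose in the same way, with replicate 2 above replicate 1 in the pairs 174 and 219, 167 and 230.5, and 146 and 175 (0.35 ± 0.058, limma adjusted p = 0.0325). The pairs of Hoxc8 were 319 and 428, 333 and 411, and 405 and 501 (0.34 ± 0.050, limma adjusted p = 0.0251). For Hoxc8 the first Foxd1-/- array nearly reached the second Foxd1+/- array. Hoxd11, which with Hoxa11 shapes the forearm and lower leg, read 106 and 132, 103 and 140.3, and 106 and 123 (0.32 ± 0.061, limma adjusted p = 0.0448). Its call was lost with an offset of 16 (adjusted p = 0.0542 in limma), with quantile normalization (0.0556) and with an intensity trend (0.0575).

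**Figure D4:**
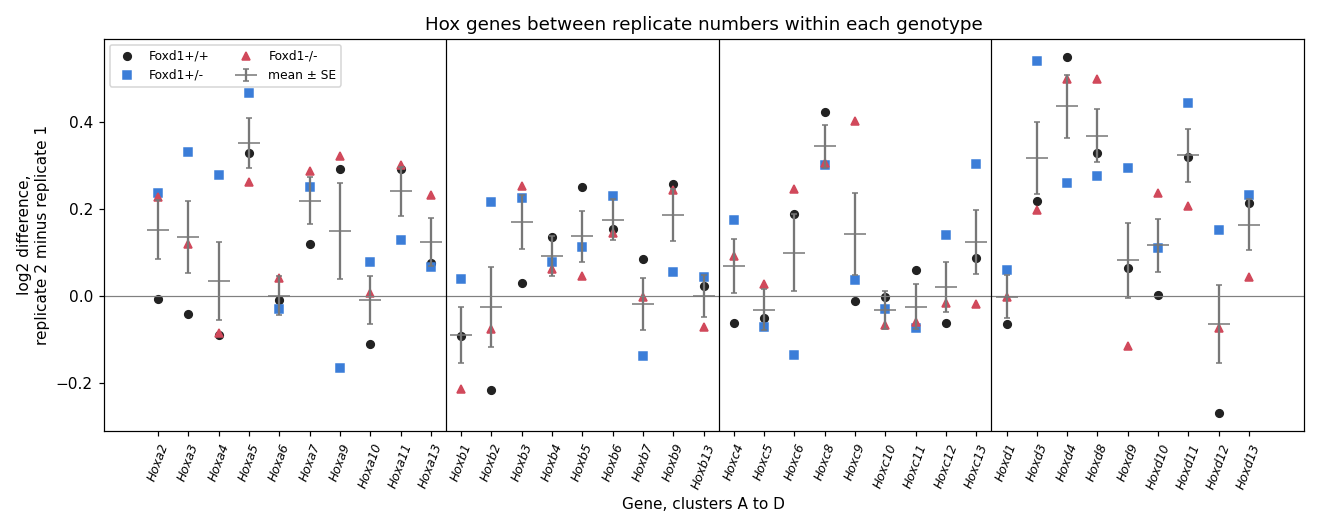
Log2 difference of replicate 2 from replicate 1 within each genotype (symbols) and its mean with standard error (grey) for each Hox gene in cluster order. Hoxa5, Hoxc8, Hoxd4, Hoxd8 and Hoxd11 lie above 0 in all 3 genotypes with means from 0.32 to 0.44, and Hoxc10 is the gene at or below 0 in all 3.

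Just short of the threshold were Hoxa11 (0.24 ± 0.056, limma adjusted p = 0.0707), Hoxa7 (0.0790), Hoxd3 (0.0891) and Hoxb6 (0.0906). In all, 27 members read higher on replicate 2 and 10 lower, with a median of 0.12 against -0.002 over all genes. Replicate 2 was higher in all 3 genotypes for 16 members (43.2%, against 22.6% of all genes). It was lower in all 3 for 1 member, Hoxc10 (2.7%, against 22.8%), whose differences were small (-0.032 ± 0.044). The 16 came to 6 of 9 genes in cluster D, 5 of 9 in B, 4 of 10 in A and 1 of 9, Hoxc8, in C. By paralog number they were 2 of 7 anterior, 8 of 14 central and 6 of 16 posterior genes. All measured genes of paralog groups 3, 4, 6, 8 and 9 read higher on average on replicate 2, and both of group 1 lower. Some of these differences were far smaller than their standard errors, at 0.001 ± 0.045 for Hoxa6 and -0.001 ± 0.049 for Hoxd1.

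The number of calls depended on which genotypes entered. With either Foxd1+/- array left out, which drops that pair from the comparison, 3 of the 5 Hox calls held. With a Foxd1+/+ or a Foxd1-/- array left out 0 held, and over all genes the calls numbered 1389, 1204 and 0 without the Foxd1+/-, Foxd1+/+ and Foxd1-/- pair. The direction was steadier, as the median over the Hox genes stayed between 0.094 and 0.13. Fibroblast markers moved the same way, with 13 of 15 higher on replicate 2, 6 of them called (median 0.29). All 10 pluripotent cell markers read lower on replicate 2, 4 of them called (median -0.63), among them Tdgf1 at 363 and 49.6, 189 and 48.2, and 192 and 46.4. The part of these markers in the Hox calls was not tested.

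Some members followed each other closely across the 6 arrays, which share genotype and replicate number as sources of spread. Partners were sought only among members of other clusters, so a closer partner within the same cluster would not be named. Within that limit Hoxd4 was most like Hoxc8 (Pearson r = 0.97 over 6 arrays) and Hoxd11 like Hoxb6 (0.93). Hoxd13 was most like Hoxc8 (0.92) and Hoxa5 like Hoxb4 (0.91). Outside its cluster Hoxa2 was most like Hoxd10 (0.90), another gene lower in Foxd1-/-. Hoxc9 had no close partner outside its cluster, the nearest being Hoxd12 at 0.64. The median r between members of the same cluster was 0.34 in A, 0.17 in B, 0.25 in C and 0.24 in D, and with members of other clusters 0.21, 0.15, 0.039 and 0.26. These are descriptions without a test.

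The TALE cofactors, with which Hox proteins bind DNA, included Meis1, which read higher in Foxd1-/-, and Pknox2, which read lower. Of the 8 genes analysed 0 passed the test in any genotype pair. Meis1 (probe set 10384504) read 403 and 476 in Foxd1+/+ cells. Its Foxd1+/- arrays gave 418 and 453, its Foxd1-/- arrays 554 and 730.0. Both Foxd1-/- arrays were above the other 4, by 0.54 ± 0.16 from Foxd1+/+ (unadjusted p = 0.0231 in limma) and 0.55 ± 0.16 from Foxd1+/-. Pknox2 (probe set 10592251) read 91.9 and 88.3, 74.3 and 116, and 47.9 and 55.0. Both of its Foxd1-/- arrays were below the others, with log2 differences of -0.80 ± 0.22 and -0.84 ± 0.22 (unadjusted p = 0.0167 and 0.0138 in limma, adjusted p = 1.0). Pbx2 and Pbx3, the smallest p of the list between Foxd1+/- and Foxd1+/+, differed by -0.11 ± 0.070 and -0.088 ± 0.056. Meis2 rose between the replicate numbers, from 975 to 1323, 921 to 1524 and 995 to 1549 (0.60 ± 0.069, limma adjusted p = 0.0157), as did 5 Hox genes. Meis3 had 0.39 ± 0.087 (limma adjusted p = 0.0659).

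**Figure D5:**
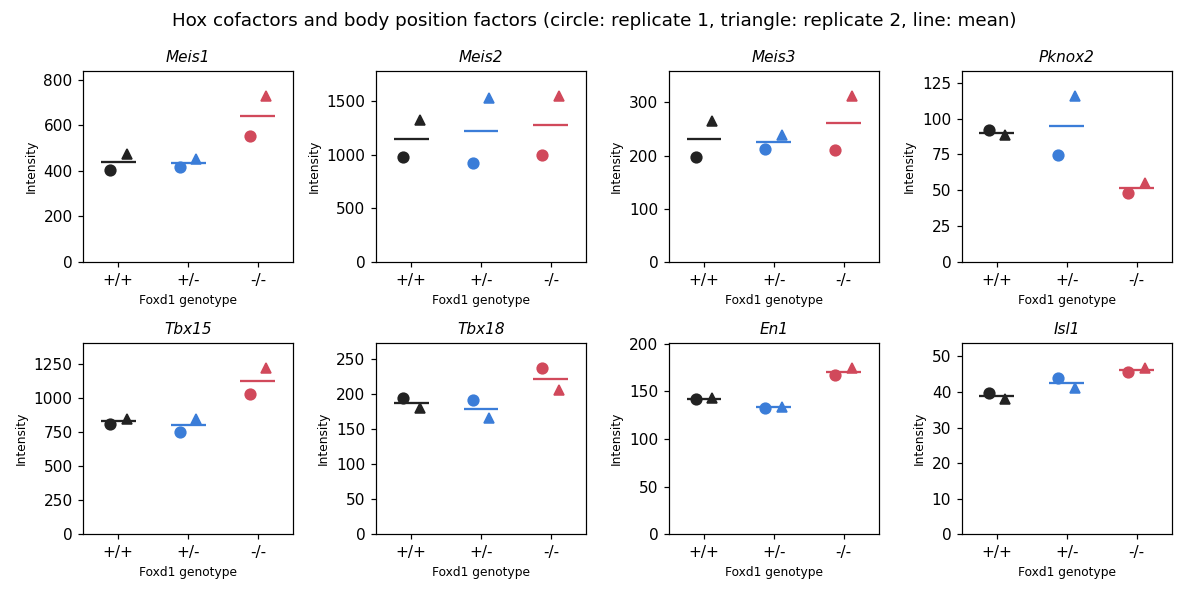
Intensity on each array (circles replicate 1, triangles replicate 2, lines group means, axes from 0) for 4 Hox cofactors and 4 body position factors. Meis1, Tbx15, Tbx18, En1 and Isl1 lie above the other 4 arrays on both Foxd1-/- arrays and Pknox2 lies below them, while Meis2 and Meis3 separate by replicate number.

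Of 17 upstream regulators and neighbours of the clusters that were analysed, 0 passed in any comparison. Between the replicate numbers 8.85% of all genes passed. In Foxd1-/- against Foxd1+/+ 13 of the 17 read higher (against 51.8% of all genes) and 4 lower (median 0.036). Gata6 had 0.13 ± 0.055, and Cyp26b1, which breaks down retinoic acid, 0.24 ± 0.15. Against Foxd1+/- 7 read higher and 10 lower, with Gsx1, a ParaHox gene, at -0.40 ± 0.18 and Kmt2a, a histone methyltransferase that maintains Hox expression, at 0.16 ± 0.076. Between Foxd1+/- and Foxd1+/+ the ParaHox genes Gsx2 (0.15 ± 0.095) and Cdx2 (0.12 ± 0.078) came first. In that pair 14 of 17 read higher, against 51.6% of all genes. Between the numbers Egr2, a hindbrain activator of Hox genes, had 0.85 ± 0.22 (limma adjusted p = 0.0836) and Gbx2 -0.23 ± 0.065, with 9 higher and 8 lower.

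Noncoding genes inside the clusters mostly lay near or below the dim threshold. Of 16 listed 9 were measured and 0 passed in any comparison, while 8.85% of all genes passed between the replicate numbers. The microRNA genes Mir10a, Mir10b, Mir196a-2 and Mir196b stayed between 21.7 and 35.3, below the dim threshold on every array. Hoxd3os1, an antisense gene of cluster D, read 44.8 and 46.9, 46.1 and 52.3, and 47.9 and 57.0 in Foxd1+/+, Foxd1+/- and Foxd1-/-, higher on replicate 2 in each. Its difference between the numbers was 0.16 ± 0.055 (limma adjusted p = 0.154), and Hoxaas2 of cluster A had 0.14 ± 0.044 (0.123). In all, 8 of the 9 read higher on replicate 2, against 49.3% of all genes, with a median of 0.086. Between genotypes 3 of 9 read higher in Foxd1-/- than in Foxd1+/+, 7 of 9 higher than in Foxd1+/-, and 4 of 9 higher in Foxd1+/- than in Foxd1+/+. Mir196a-2 differed by 0.088 ± 0.065 in the first and Mir196b by -0.084 ± 0.10 in the second.

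Of 26 limb and body position factors outside the clusters 24 were measured, and 0 passed in any comparison. Over all genes 8.85% passed between the replicate numbers. En1, a marker of ventral limb ectoderm, read 142 and 143, 133 and 134, and 167 and 175. Both Foxd1-/- arrays were above the other 4 with tight pairs, by 0.26 ± 0.052 and 0.35 ± 0.052 (unadjusted p = 0.00442 and 0.00121 in limma, adjusted p = 1.0). Tbx15, a T-box gene of dermal and skeletal mesenchyme, read 809 and 848, 749 and 848, and 1028 and 1218 (0.43 ± 0.11 and 0.49 ± 0.11). Isl1, needed to start the hindlimb bud, read 39.8 and 38.0 against 45.6 and 46.8 (0.24 ± 0.061), near the dim threshold. Between Foxd1+/- and Foxd1+/+ Msx1 had 0.32 ± 0.095 and Pax9 0.15 ± 0.057. Between the numbers Grem1, a BMP antagonist of the limb bud, had -0.79 ± 0.18 (limma adjusted p = 0.0682) and Tbx2 0.24 ± 0.055 (0.0715). In each of the 3 genotype pairs 14 of 24 read higher in the first-named group, with medians of 0.030 and 0.019 for Foxd1-/- and 0.035 for Foxd1+/-.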

How the data were processed

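The deposited file holds linear intensity values, as the authors made them, of 28856 probe sets on 6 arrays. How they corrected background and normalized the arrays is not given in the sources used. Array medians were similar, from 76.5 to 79.6, with the highest on the second Foxd1+/- array. Gene names came from the annotation of the array platform, in which 21789 probe sets had 1 gene symbol, 1621 several and 5446 none listed. Those with 1 symbol were used, and 999 genes with more than 1 probe set were read from the brightest on average, which left 19938 genes.

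Tests used log2(intensity + 1), a scale on which differences of dim genes shrink, and limma 3.58.1 (lmFit and eBayes) in R 4.3.3. Genotype pairs used all 6 arrays with 1 mean per genotype and 3 residual degrees of freedom. Replicate numbers were compared in an additive model with genotype, with 2 residual degrees of freedom. Adjustment was Benjamini-Hochberg over all genes, with a threshold of 0.05. The scripts were tested on simulated data. Alternatives were offsets of 0 and 16, the mean of probe sets, median centring, quantile normalization, a filter on dim genes, an intensity trend, a fit of 2 genotypes alone, a replicate block and leaving out arrays.

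Members and lists were chosen with earlier results of these data known. Values on all arrays are given for up to 5 members per direction with the largest separated difference and the 2 with the smallest unadjusted p per comparison, and up to 2 genes per list by p. Hoxc8, Hoxd4 and Hoxa5 in the comparison of Foxd1-/- with Foxd1+/+, and members named only by a difference, were chosen after their values were seen. Upstream stretches came from RefSeq (GRCm38.p6), and figures were drawn with matplotlib 3.10.9.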

Additional observations from a re-analysis of the deposited data

How the results depend on the processing

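With 2 arrays a group and no detection call, small differences and dim genes were not resolvable here. In the 3 genotype pairs 0 genes were called under every alternative run. The sign of the median over the Hox genes turned in all 3 pairs when 1 array at a time was left out. It moved from -0.063 to 0.090 for Foxd1+/- against Foxd1+/+, from -0.032 to 0.041 and from -0.083 to 0.041 for Foxd1-/- against Foxd1+/+ and Foxd1+/-. For Foxd1+/- against Foxd1+/+ the genes of cluster D that read higher went from 7 of 9 to 2 without the first Foxd1+/+ array and to 0 without the second Foxd1+/- array. Between replicate numbers the median moved from 0.094 to 0.134, the Hox calls from 0 to 3 and the calls over all genes from 0 to 1389. Leaving out an array there removes its genotype from the comparison, so fewer arrays enter. The fit of replicate numbers without both arrays whose Foxd1 went against their labels could not be run. Hoxd11 was the 1 Hox call lost under an alternative that kept all arrays.

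The genotypes share the replicate numbers 1 and 2. Differences between the numbers correlated across genes with r of 0.55 (Foxd1+/+ and Foxd1+/-), 0.73 (Foxd1+/+ and Foxd1-/-) and 0.727 (Foxd1+/- and Foxd1-/-), but the labels do not say that a number marks a shared culture. With the number as a replicate block limma called 0 genes in each pair (smallest adjusted p 0.489 for Foxd1-/- against Foxd1+/+ and 0.451 against Foxd1+/-). At an unadjusted p under 0.05 the block gave 1503, 1507 and 400 genes in place of 421, 460 and 193. Among the 37 Hox genes it gave 8, 9 and 3 (21.6%, 24.3% and 8.11%, against 7.54%, 7.56% and 2.01% of all genes) in place of 3, 5 and 0. For Foxd1-/- against Foxd1+/+ the unadjusted limma p with the block was 0.00601 for Hoxc8, 0.0109 for Hoxa5 and 0.020 for Hoxd4, in place of 0.219, 0.236 and 0.301, and their adjusted p was 0.528, 0.567 and 0.600. Each genotype has 1 array of each number, so the block changes the error of a difference and leaves the difference, and the Hox medians of -0.013, -0.015 and 0.022, as it was by construction.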
